A study of Mus musculus with 16 samples.

Results

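Brain gene expression at 26 months of age was compared with that at 13 months in mice fed a ketogenic diet, in which fat replaces nearly all carbohydrate. The comparison sets the 4 libraries of the 26-month ketogenic group (O, P, Q and R) against the 4 of the 13-month ketogenic group (F, G, H and J), 8 of the 16 libraries of the series, across all 17762 genes with enough counts to test. The members were taken from the age and diet in the labels. Mice were allocated at random to the diets when they were 12 months old, so both ketogenic groups had started the diet at that age. Age and time on the diet cannot be told apart, since the older group had also eaten the diet for longer. The other 8 libraries are control-diet brains of the same ages (13 months: A, B, C, E; 26 months: K, L, M, N) and serve here only to ask whether a change differed between the diets. The labels name the tissue only as brain, give no strain, sex, brain region or hour of collection, and leave unsaid whether each library is 1 mouse. The p-values rest on the spread between libraries, part of which may be technical.

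The ageing brain is known for a slow rise of innate immune genes. Microglia, its resident macrophages, take up a state marked by phagocytic receptors and lysosomal enzymes, astrocytes raise intermediate filaments, and complement, which tags material for uptake, is made by both cell types. Oligodendrocytes wrap axons in myelin throughout adult life. During ketosis the liver turns fat into ketone bodies, which neurons and glia take up and burn in their mitochondria in place of glucose.

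The 8 ketogenic libraries held 11229822 to 15429009 counts each. Defining markers of microglia, astrocytes, oligodendrocytes and excitatory and inhibitory neurons were present in all of them. Library J at 13 months and library R at 26 months stood apart from the others of their group, with 18S rRNA at 0.425% and 0.189% of counts against 2.44 to 7.98% in the other 6, and each control group also held 1 such library. These 4 are called low-18S libraries below, and each result was also fitted with a term for them. Library G held 1912 counts of albumin (Alb), a liver transcript, against at most 55 in the other ketogenic libraries, and library P held 161 counts of the neutrophil gene S100a9 against at most 18. In bulk tissue, more cells of a type and more RNA per cell cannot be told apart. Levels are in CPM, the usual depth-scaled count unit, here with TMM factors. Values are listed in the order F, G, H, J for 13 months and O, P, Q, R for 26 months, changes are log2 ratios of 26 to 13 months with their standard error (SE), and n = 4 per group throughout.

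Of 17762 genes tested, 39 passed an adjusted p of 0.05 (0.220%) by edgeR's quasi-likelihood test with Benjamini-Hochberg adjustment. Of these, 35 were higher at 26 months (0.197%) and 4 lower (0.0225%). The median absolute log2 change of the 39 was 0.83, and 12 of them changed by more than 2-fold. All 39 had groups that did not overlap, and so did 753 genes in the higher direction (4.24%) and 618 in the lower direction (3.48%) among all tested genes. With the low-18S term in the model, 675 genes passed (3.80%), 406 higher (2.29%) and 269 lower (1.51%), and all 39 were among them. The counts in gene lists below are to be read against these shares of all tested genes. With libraries G and P left out, 15 genes passed and 14 of the 39 were among them. Of the 39, 16 kept an adjusted p below 0.05 with each ketogenic library left out in turn. The rest lost it in between 1 such fit (Ctsz) and all 8 (Fgf12 and Anxa3). Where a lost call is given below with 1 library, other libraries left out singly also lost it, except for Ctsz.

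**Figure D1:**
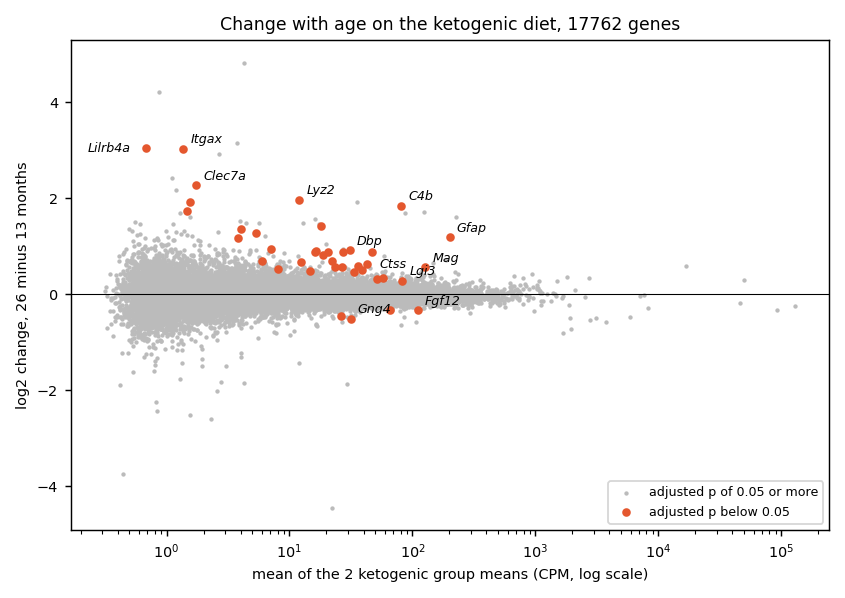
Log2 change from 13 to 26 months on the ketogenic diet (vertical axis) against the mean level of each gene in CPM (horizontal log axis), 1 point per tested gene, with the 39 genes of adjusted p below 0.05 in orange. The 35 higher genes include low-level genes with large changes, such as Itgax, and high-level genes with small changes, such as Mag, and the 4 lower genes lie between −0.33 and −0.51.

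Complement genes were among those that rose. C4b, which encodes complement component 4 (ENSMUSG00000073418.4, chromosome 17, 34728380 to 34743882), stood at 32.6, 36.2, 39 and 33.4 CPM at 13 months. At 26 months it stood at 131, 101, 161 and 114 CPM, a rise of 3.6-fold (log2 1.85 ± 0.12, adjusted p = 2.57e-07). Every 26-month library was above 100 CPM and every 13-month library below 40, and C4b had the smallest p of all genes. Its reads may include those of the near-identical C4a, which was listed at 0.625, 0.968, 0.467 and 1.02 CPM at 13 months and 0.586, 0.908, 0.504 and 0.643 CPM at 26 months. The 3 chains of C1q, the recognition molecule that starts the classical pathway, are encoded side by side on chromosome 4. C1qa (ENSMUSG00000036887.5, chromosome 4, 136895917 to 136898803) rose from 15.7, 16.4, 14 and 12 to 25.7, 29.5, 30.7 and 21.9 CPM (log2 0.88 ± 0.13, adjusted p = 0.00273). C1qb rose from 20.2, 17, 16.6 and 13.6 to 27.8, 29.8, 31.4 and 21 CPM (log2 0.70 ± 0.13, adjusted p = 0.0306). C1qc rose from 14.2, 13.3, 16.6 and 10.4 to 24.8, 22.9, 28.6 and 20.1 CPM (log2 0.83 ± 0.15, adjusted p = 0.0306). In all 3 genes the lowest library of each age was the low-18S library, J or R, and the ages did not overlap. C1qb and C1qc each lost the call in 6 of the 8 fits with 1 ketogenic library left out. Their adjusted p was highest without library Q (0.172 and 0.164), where C1qa held (adjusted p = 0.0221). Itgb2, the shared chain of the complement receptors CR3 and CR4 of phagocytes (ENSMUSG00000000290.13, chromosome 10, 77530252 to 77565708), rose 2.42-fold, from 3.05, 3.52, 2.71 and 3.06 to 6.03, 9.38, 8.06 and 6.59 CPM (adjusted p = 0.00254).

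Of 14 listed complement genes, 12 were tested, 5 rose and none fell, where 0.197% of all genes tested rose. The list median was 0.52 against −0.00 over all genes tested. C3, the central component on which the pathways converge, did not pass (log2 0.58 ± 0.67, adjusted p = 0.855). Its level was 1.6, 19.8, 1.96 and 1.63 CPM at 13 months and 9.63, 9.68, 10.1 and 7.34 CPM at 26 months. Library G alone of the 13-month libraries was thus above the 26-month libraries. Library G also held liver transcripts, and their part in its C3 value was not tested. C3 was singled out after its values were seen. Without library G it was 5.30-fold higher at 26 months (log2 2.41 ± 0.25). Since G holds the value that opposes the rise, this fit is a description and no p-value is given for it.

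Of 24 tested genes of the activated microglial state, 9 rose and none fell, where 0.197% of all genes tested rose. The list median was 0.62 against −0.00 over all genes, with all 24 point estimates above 0. Trem2, the lipid-sensing receptor that drives this state (ENSMUSG00000023992.14, chromosome 17, 48346401 to 48354147), stood at 4.23, 5.45, 4.77 and 4.76 CPM at 13 months and 9.79, 9.28, 9.93 and 7.93 CPM at 26 months (log2 0.94 ± 0.14, adjusted p = 0.00239). Itgax, which encodes the integrin CD11c (ENSMUSG00000030789.9, chromosome 7, 128129547 to 128150657), had 5, 3, 2 and 5 counts at 13 months and 24, 22, 51 and 35 counts at 26 months (8.17-fold, log2 3.03 ± 0.45, adjusted p = 0.00328). Both were higher in every 26-month library than in any 13-month library. Clec7a, the beta-glucan receptor Dectin-1, had 6, 5, 14 and 4 counts at 13 months, with library H the highest of that age. At 26 months it had 34, 33, 42 and 44 counts (log2 2.28 ± 0.40, adjusted p = 0.014, and 0.0954 without library F). Lyz2, the lysozyme of myeloid cells (ENSMUSG00000069516.7, chromosome 10, 117277334 to 117282274), rose 3.92-fold, from 5.48, 5.37, 5.05 and 3.54 to 17.7, 25.3, 19.1 and 14.2 CPM (adjusted p = 1.24e-04). Library P, which also held neutrophil transcripts, was the highest for Lyz2, and the other 3 libraries of 26 months each stood above 14 CPM. Lyz2 has a close copy in Lyz1, whose reads cannot be set apart with certainty.

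Cd84, an adhesion receptor of immune cells, rose from 2.36, 2.11, 2.34 and 2.52 to 5.86, 5.45, 5.18 and 4.77 CPM (log2 1.18 ± 0.14, adjusted p = 2.69e-04). Mpeg1, a pore-forming protein of macrophages, rose from 18.5, 20.5, 21.8 and 16.3 to 34, 34, 39.4 and 34.1 CPM (log2 0.88 ± 0.11, adjusted p = 4.53e-04). Gpnmb, a lysosomal membrane glycoprotein of lipid-laden phagocytes, rose from 1.53, 2.81, 2.34 and 2.31 to 6.45, 5.65, 6.48 and 4.61 CPM (log2 1.37 ± 0.22, adjusted p = 0.00778). These 3 genes kept the call with each ketogenic library left out. Lgals3, the galectin of phagocytosing microglia, had 12, 9, 9 and 4 counts at 13 months and 18, 29, 38 and 36 at 26 months (log2 1.73 ± 0.33, adjusted p = 0.0306, and 0.146 without library Q). Ctsz, the cathepsin that completes the 9, is given with the lysosomal genes. Cst7, which encodes cystatin F, did not pass (log2 1.02 ± 0.47, adjusted p = 0.418). Neither did Spp1, which encodes osteopontin (log2 0.22 ± 0.17), or Lpl, lipoprotein lipase (log2 0.14 ± 0.14). With the term for the low-18S libraries 18 of the 24 passed, all higher, against 2.29% of all genes. With libraries G and P left out 6 passed.

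Markers of resting microglia gave smaller values, and none of the 14 passed. The list median was 0.29, with 10 point estimates above 0 and 4 below. Csf1r, the growth factor receptor on which microglia depend, stood at 48.4, 50.8, 48.7 and 46 CPM at 13 months and 63.3, 55.7, 65.1 and 55.2 CPM at 26 months (log2 0.30 ± 0.09, adjusted p = 0.197). P2ry12, the ADP receptor of resting microglia, stood at 17.8, 18.9, 20.6 and 15.3 CPM and 16.1, 14.6, 15 and 17.8 CPM (log2 −0.18 ± 0.10, adjusted p = 0.565). The groups did not overlap for Csf1r and overlapped for P2ry12. Summed over the list, levels ran from 182 to 209 CPM at 13 months and from 222 to 241 CPM at 26 months, so these markers lay higher at 26 months as a sum. Whether the number of microglia had a part in the rise of the activated genes was not tested. Under the low-18S term 4 of the 14 passed, all higher, among them Csf1r (adjusted p = 0.00313).

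**Figure D2:**
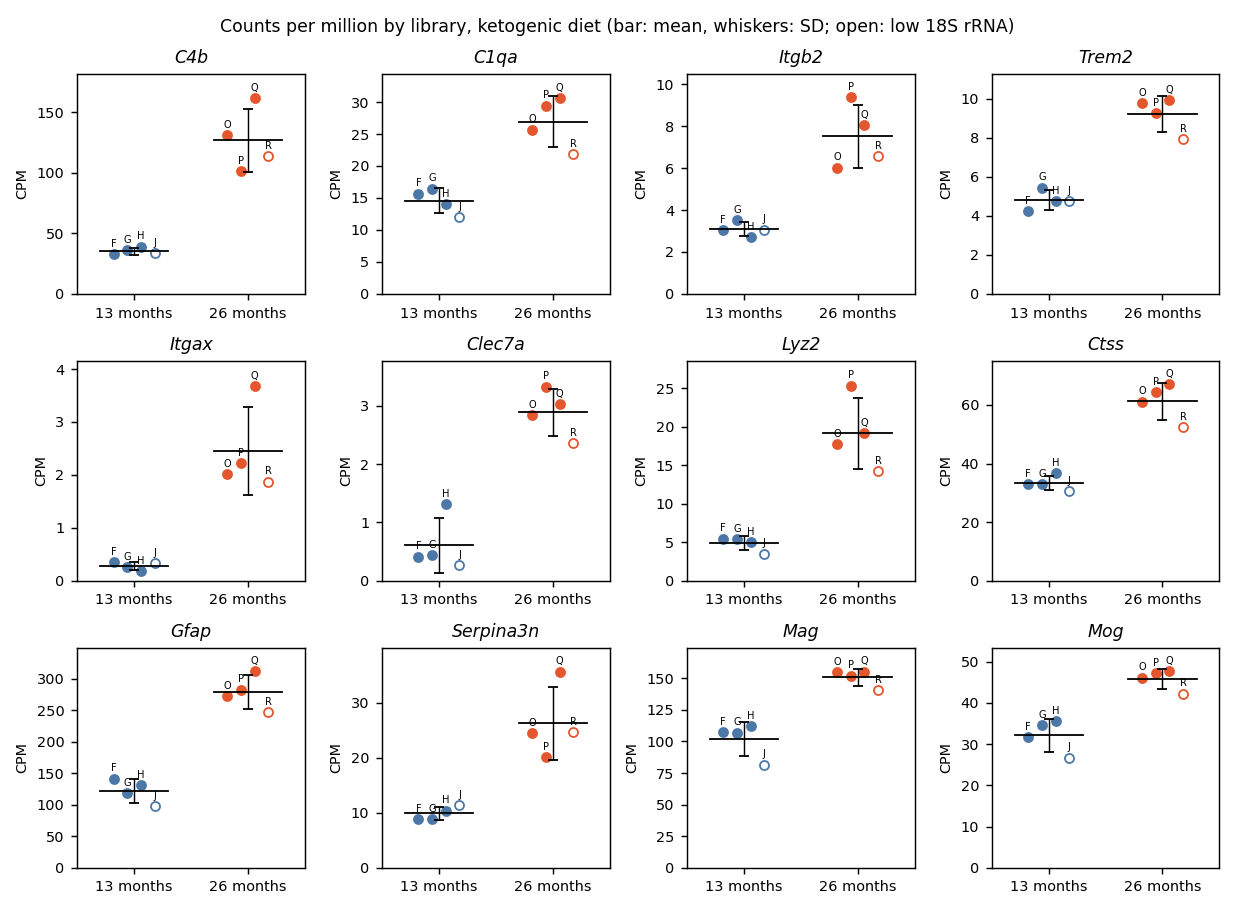
Level of 12 genes in CPM (vertical axes from 0) in the 4 ketogenic libraries of each age, with a letter per library, bars at the mean, whiskers of 1 SD and open symbols for the low-18S libraries J and R. In each of the 12 panels every 26-month library lies above every 13-month library, from C4b and C1qa of complement to Gfap and the myelin genes Mag and Mog.

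Outside that list, Lilrb4a, Cybb and Dock2 also rose. Lilrb4a, an inhibitory receptor, had 1, 0, 3 and 3 counts at 13 months and 13, 14, 24 and 12 at 26 months (log2 3.05 ± 0.54, adjusted p = 0.0163, and 0.105 without library F). Its counts may be shared with the overlapping gene Lilr4b. Cybb, the membrane subunit of the phagocyte NADPH oxidase, had 6, 3, 12 and 11 counts and 26, 37, 35 and 27 counts (log2 1.93 ± 0.38, adjusted p = 0.040, and 0.177 without library P). Dock2, an activator of the GTPase Rac in immune cells, rose from 4.58, 4.22, 5.05 and 4.49 to 8.45, 7.06, 7.7 and 6.64 CPM (log2 0.70 ± 0.13, adjusted p = 0.0181, and 0.107 without library O). For Dock2 the gene Fam196b lies on the opposite strand within it, and the strand setting of the counting is not given in the sources used here. None of 12 tested Fc and pattern-recognition receptors passed, at a list median of 0.61. The smallest p in that list was that of Fcgr2b, the inhibitory Fc gamma receptor, at 1.8, 2.73, 2.24 and 2.31 CPM and 3.93, 4.14, 4.39 and 3.37 CPM (log2 0.80 ± 0.17, adjusted p = 0.0613). Its 26-month libraries all lay above the 13-month ones.

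The promoters of 30 of the 39 genes were matched in RefSeq (GRCm38.p6), each from 250 bases before to 50 after the start. They are shown for 3 of the microglial genes, chosen because they rose together and hold letters of motifs of factors active in myeloid cells, GAGGAAGT of the ETS factor PU.1 and the interferon-stimulated response element, taken as GAAA, any 2 bases and GAAA. Both strands were searched, and the motifs share no overlapping match here. Capitals mark each match of either motif, and ACTTCCTC or a pair of TTTC is the motif read on the other strand. The sequences are written 5′ to 3′ on the strand of the gene, for Ctss at chr3:95526536-95526835 on the plus strand, for C1qc at chr4:136892865-136893164 on the minus strand and for Cybb at chrX:9469275-9469574 on the minus strand.
Ctss: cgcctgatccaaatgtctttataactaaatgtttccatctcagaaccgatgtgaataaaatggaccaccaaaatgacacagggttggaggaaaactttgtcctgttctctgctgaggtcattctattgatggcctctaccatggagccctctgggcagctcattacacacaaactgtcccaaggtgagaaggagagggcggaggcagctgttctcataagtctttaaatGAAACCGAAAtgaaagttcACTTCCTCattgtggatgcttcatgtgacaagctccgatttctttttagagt
C1qc: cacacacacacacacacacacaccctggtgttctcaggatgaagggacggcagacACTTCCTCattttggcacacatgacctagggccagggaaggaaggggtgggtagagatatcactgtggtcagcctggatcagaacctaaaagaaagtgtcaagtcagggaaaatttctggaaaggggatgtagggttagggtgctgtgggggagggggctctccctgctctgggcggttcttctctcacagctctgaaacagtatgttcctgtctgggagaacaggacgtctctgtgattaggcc
Cybb: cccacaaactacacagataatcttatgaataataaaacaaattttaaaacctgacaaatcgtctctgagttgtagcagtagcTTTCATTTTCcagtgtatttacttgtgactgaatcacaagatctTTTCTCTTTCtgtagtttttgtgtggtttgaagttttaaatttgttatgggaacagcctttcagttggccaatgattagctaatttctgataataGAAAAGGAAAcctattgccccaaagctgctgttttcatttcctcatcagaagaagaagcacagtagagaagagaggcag
The PU.1-type letters were in 2 of the 30 promoters, those of Ctss and C1qc, and in 3.69% of 27025 genes with a promoter. The interferon-type letters were in 2 of the 30, those of Ctss and Cybb, against 3.99% of genes. The letters CACGTG (E-box) and TTATGNAA (D-box, N for any base) were also searched. CACGTG was in 0 of the 30 against 8.09% of genes, and TTATGNAA in 1, that of Serpina3n, against 3.99%. Counts of 0 to 2 are too few to set apart from those shares, and a match is a description, not a site.

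Lysosomal genes rose in 2 of 18 tested cases, at a list median of 0.28 with 17 of 18 point estimates above 0. Ctss, which encodes cathepsin S, a protease that microglia use in antigen processing (ENSMUSG00000038642.10, chromosome 3, 95526786 to 95556403), stood at 33, 33.1, 36.6 and 30.6 CPM at 13 months and 61.1, 64.3, 67.1 and 52.5 CPM at 26 months (log2 0.88 ± 0.10, adjusted p = 1.24e-04). Ctsz, cathepsin Z, rose from 18.7, 19.1, 19.6 and 17.8 to 28.5, 29.1, 26.8 and 26.9 CPM (log2 0.56 ± 0.09, adjusted p = 0.00778, and 0.0544 without library P). In both genes the ages were separate. Ctsz overlaps Nelfcd on the opposite strand. The broadly expressed cathepsins B and D did not pass, with Ctsb at log2 0.24 ± 0.07 and Ctsd at 0.38 ± 0.11. Man2b1, the lysosomal alpha-mannosidase, lies outside that list and rose from 29.7, 26.7, 27.5 and 29.3 to 40.9, 36.7, 41.8 and 36.6 CPM (log2 0.46 ± 0.07, adjusted p = 0.00228). Its spread within each age was small, and the call held with each ketogenic library left out. Ftl1, the light chain of the iron store ferritin, rose from 20.2, 22.7, 22.6 and 20 to 30.8, 34.4, 33.5 and 28.6 CPM (log2 0.57 ± 0.09, adjusted p = 0.00644). The heavy chain gene Fth1, at 839, 845, 839 and 699 CPM and 1146, 1092, 1209 and 899.6 CPM, did not pass (log2 0.43 ± 0.14, adjusted p = 0.241). Ferritin genes have many near-identical pseudogenes, so both values are uncertain. With the term for low 18S, 9 of the 18 lysosomal genes passed, all higher.

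Antigen presentation and interferon-response genes were nearly all higher in point estimate, and few passed singly. In the class I list 1 of 15 passed, at a list median of 0.59 with all 15 estimates above 0. For 7 of the 15 the ages did not overlap, higher at 26 months, against 4.24% of all genes tested. H2-D1, a classical class I heavy chain, stood at 30, 31.4, 28.1 and 25.2 CPM at 13 months and 46.4, 44.7, 47.7 and 34.4 CPM at 26 months (log2 0.59 ± 0.12, adjusted p = 0.0483, and 0.20 without library Q). B2m, the light chain shared by class I molecules, stood at 39, 40.8, 35.2 and 31.9 CPM and 53.2, 51.4, 57.4 and 52.6 CPM (log2 0.55 ± 0.12, adjusted p = 0.0752). H2-K1, a further heavy chain, stood just outside the threshold (log2 0.80 ± 0.16, adjusted p = 0.0521). The H2 genes resemble each other, and their reads may be split between them. Of 25 tested interferon-response genes, 1 passed, at a list median of 0.67 with all 25 estimates above 0. That gene was Lgals3bp, a secreted galectin-binding protein, at 11.5, 10.8, 14.1 and 9.46 CPM and 22.6, 18.5, 24.9 and 18 CPM (log2 0.88 ± 0.14, adjusted p = 0.00778). Ifit3b, an antiviral effector with a near-identical neighbour in Ifit3, did not pass (log2 0.93 ± 0.20, adjusted p = 0.0547). None of 7 class II genes passed, at a list median of 0.68, and Cd74, the invariant chain of class II molecules, had overlapping groups (log2 0.88 ± 0.27, adjusted p = 0.202). Once the low-18S libraries had a term, 7 class I genes, 1 class II gene and 5 interferon genes passed, all higher. With libraries G and P left out, none of the 3 lists had a member that passed.

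Genes of reactive astrocytes rose in 3 of 18 tested cases, at a list median of 0.55. Gfap, the intermediate filament that defines reactive astrocytes (ENSMUSG00000020932.14, chromosome 11, 102887336 to 102900912), stood at 141, 118, 132 and 97.5 CPM at 13 months and 273, 283, 312 and 247 CPM at 26 months (log2 1.19 ± 0.13, adjusted p = 2.62e-04). Serpina3n, a secreted protease inhibitor (ENSMUSG00000021091.8, chromosome 12, 104406729 to 104414329), stood at 8.81, 8.88, 10.4 and 11.4 CPM and 24.5, 20.1, 35.6 and 24.7 CPM (log2 1.41 ± 0.16, adjusted p = 2.13e-04). Both had separate ages and held with each ketogenic library left out, with library Q the highest at 26 months in each. Serpina3n belongs to a family of close copies. Vim, the intermediate filament vimentin, rose from 35.2, 35.5, 37.8 and 25 to 54.2, 48.1, 57.2 and 47.4 CPM (log2 0.64 ± 0.12, adjusted p = 0.0359, and 0.184 without library Q). Lcn2, lipocalin 2, did not pass (adjusted p = 0.186). Its level was 0, 0.088, 0 and 0.204 CPM at 13 months and 0.837, 4.14, 0.792 and 0.91 CPM at 26 months. The ages did not overlap, and library P was the highest. Lcn2 is also abundant in neutrophils, whose transcripts library P held, and their part in these values was not tested. On the control diet its change was log2 4.22 ± 1.27, which did not pass either. None of 13 general astrocyte genes passed, at a list median of 0.06.

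Of 18 tested myelin genes, 2 rose, Mag and Mog, and none fell. Mag, the myelin-associated glycoprotein that faces the axon, stood at 107, 107, 112 and 81.7 CPM at 13 months and 155, 152, 155 and 141 CPM at 26 months (log2 0.56 ± 0.09, adjusted p = 0.00944, and 0.0648 without library Q). Mog, the oligodendrocyte glycoprotein of the outermost myelin layer (ENSMUSG00000076439.12, chromosome 17, 37010743 to 37023398), stood at 31.7, 34.6, 35.6 and 26.7 CPM and 46.1, 47.2, 47.6 and 42.2 CPM (log2 0.51 ± 0.09, adjusted p = 0.0118, and 0.0785 without library F). For both genes the ages were separate and the low-18S library was the lowest of its age. The list median was 0.33 with all 18 estimates above 0. Mbp, myelin basic protein, stood at 1667, 1619, 1770.4 and 1249 CPM and 1973, 2033, 2285 and 1849 CPM and did not pass (log2 0.37 ± 0.11, adjusted p = 0.21). Summed over the list, levels were 4296, 4179.6, 4488 and 3333 CPM at 13 months and 5171, 5189.8, 5677 and 4724 CPM at 26 months, so every 26-month library was above every 13-month library. In the fit with the low-18S term 11 of 18 passed, all higher, among them Mobp, a structural myelin protein (adjusted p = 1.62e-04), Cnp, a phosphodiesterase of myelin (adjusted p = 4.69e-06), and Mbp (adjusted p = 3.17e-04). With libraries G and P left out none of the 18 passed. Of 13 genes of oligodendrocyte precursors none passed, at a list median of 0.05.

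Further genes that rose were in none of these lists. Ppp1r14a, an inhibitor of myosin phosphatase, stood at 8.95, 11.5, 10.9 and 7.28 CPM and 14.5, 17.5, 15.5 and 13.9 CPM (log2 0.67 ± 0.14, adjusted p = 0.0483, and 0.203 without library P). Itgb4, the integrin beta 4 chain, rose from 11.9, 14.2, 11.6 and 11.1 to 17.3, 16.9, 15.9 and 17.9 CPM (log2 0.49 ± 0.10, adjusted p = 0.040, and 0.145 without library H). Lgi3, a secreted protein related to the epilepsy gene product LGI1, stood at 74.4, 72.7, 79.2 and 70.5 CPM and 93.4, 89.8, 90.5 and 87.6 CPM (log2 0.28 ± 0.05, adjusted p = 0.0306, and 0.146 without library Q). The change of Lgi3 was the smallest among the 35 higher genes, and its ages were separate. The other higher genes were Anxa3, an annexin (log2 0.52 ± 0.11, adjusted p = 0.049), Rab31, a small GTPase of vesicle traffic (log2 0.32 ± 0.07, adjusted p = 0.0483), Ssfa2 (log2 0.33 ± 0.07, adjusted p = 0.0423) and the pseudogene Nlrp5-ps (log2 0.91 ± 0.16, adjusted p = 0.0181). Each of these 4 lost the call without library P, at adjusted p of 0.189, 0.201, 0.196 and 0.0978. With 1 ketogenic library left out, Anxa3 lost it in all 8 fits, Rab31 and Ssfa2 in 7 and Nlrp5-ps in 5. Just outside the threshold were Chadl, a collagen-binding matrix protein (log2 0.60 ± 0.13, adjusted p = 0.0521), Cd9, a tetraspanin (log2 0.60 ± 0.13), Npc2, a lysosomal cholesterol carrier (log2 0.42 ± 0.09), Unc93b1, a chaperone of Toll-like receptors (log2 0.63 ± 0.13), and Phldb1, a scaffold protein of the cell cortex (log2 0.33 ± 0.07).

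A clock-controlled gene had the second smallest p. Dbp, a transcription factor driven by the circadian clock (ENSMUSG00000059824.12, chromosome 7, 45705088 to 45710203), stood at 20.9, 20.9, 21.6 and 22.3 CPM at 13 months and 43.9, 36.9, 39.9 and 41.3 CPM at 26 months (log2 0.92 ± 0.10, adjusted p = 1.24e-04). The 13-month values lay close together, and the ages were separate. Dbp overlaps Sphk2 on the opposite strand. Of 19 clock genes tested it alone passed, at a list median of 0.16 with 12 estimates above 0 and 7 below. Arntl, which encodes the activator BMAL1, stood at 25.7, 27.5, 26.3 and 26.5 CPM and 16.7, 21.2, 17.8 and 19.4 CPM (log2 −0.50 ± 0.11, adjusted p = 0.0709). Its partner Clock stood at 118, 117, 114 and 115 CPM and 94.2, 96.2, 93.2 and 102 CPM (log2 −0.27 ± 0.06, adjusted p = 0.0521). Both had separate ages, lower at 26 months, and missed the threshold. Bhlhe41, a repressor of the clock, stood just outside it in the other direction (log2 0.31 ± 0.06, adjusted p = 0.0521). With the low-18S term Dbp, Bhlhe41, Arntl, Clock and 5 further clock genes passed, 7 higher and 2 lower. Library Q was highest for Per1 and Per2, clock genes that also answer stress hormones, at 96.0 and 45.8 CPM against at most 69.3 and 24.8 in the other 7 libraries. The hour of collection was not given in the labels, and its part in these values was not tested.

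The 4 genes that fell were Plppr5, Fgf12, Gng4 and Raph1. Plppr5, a phospholipid phosphatase-related membrane protein of outgrowing neurites (ENSMUSG00000033342.13, chromosome 3, 117574836 to 117689507), stood at 30.6, 27.9, 33.4 and 29.3 CPM at 13 months and 21, 19.7, 24.6 and 22.7 CPM at 26 months (log2 −0.46 ± 0.09, adjusted p = 0.0306). Fgf12, an intracellular modulator of voltage-gated sodium channels, stood at 120.3, 129, 128 and 117 CPM and 100.2, 100, 94.9 and 96.7 CPM (log2 −0.34 ± 0.07, adjusted p = 0.0412). Gng4, a G protein gamma subunit abundant in olfactory bulb interneurons, stood at 39.1, 33.5, 37 and 38 CPM and 24.9, 25.3, 24.6 and 28.4 CPM (log2 −0.51 ± 0.10, adjusted p = 0.0483). Raph1, the actin regulator lamellipodin, stood at 75.4, 71.3, 69.8 and 77.7 CPM and 60.4, 53.3, 57.9 and 61.8 CPM (log2 −0.33 ± 0.07, adjusted p = 0.0483). None of the 4 had overlapping ages, and all 4 lost the call in most fits with 1 ketogenic library left out, with adjusted p up to 0.153, 0.194, 0.194 and 0.201. With libraries G and P left out no gene passed in the lower direction. DESeq2, used as an alternative, called 48 lower genes and 92 higher ones, and edgeR with the low-18S term 269 and 406.

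Synaptic genes were lower as a sum, and none of 22 passed. The list median was −0.13 against −0.00 over all genes, with 19 estimates below 0, and the summed level was 8368, 8355, 8122 and 8067 CPM at 13 months and 7501, 7376, 7702 and 7439 CPM at 26 months. Each 26-month library was thus below each 13-month library in the sum. Homer1, a scaffold of the postsynaptic density, stood at 126, 123, 118 and 114 CPM and 91.4, 97.2, 100.5 and 97.1 CPM (log2 −0.32 ± 0.08, adjusted p = 0.133). Grin2b, a subunit of the NMDA receptor, stood at 613, 567, 637 and 628 CPM and 564, 494, 510.1 and 479 CPM (log2 −0.26 ± 0.09, adjusted p = 0.253). With the low-18S term 5 of the 22 passed, all lower: Homer1, Grin2b, the AMPA receptor subunit Gria2 and the vesicle proteins Vamp2 and Syn1. In that fit 1.51% of all genes passed lower. DESeq2 called 1 of the 22 lower, upper-quartile scaling 0 and the fit without libraries G and P 0. On the control diet the median of the synaptic list was 0.02. Of 20 tested genes of voltage-gated channels and their partners 1 passed, Fgf12, at a list median of −0.07. The lists of excitatory and inhibitory neurons had medians of −0.05 and −0.08 and no member that passed. Of 19 immediate early genes, which neuronal activity induces, none passed, at a list median of −0.29. In that list Fos was lowest in the low-18S libraries of each age, at 18.5, 15.1, 14.6 and 3.13 CPM and 9.46, 9.08, 16 and 3.96 CPM.

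Olfactory bulb markers had a list median of −0.47, with 16 of 17 tested genes below 0, and 1 passed, Gng4. Sp8, a transcription factor of bulb interneurons, stood at 5.48, 3.25, 6.26 and 8.17 CPM and 2.68, 1.82, 2.02 and 2.78 CPM (log2 −1.31 ± 0.36, adjusted p = 0.177). Synpr, synaptoporin, stood at 61.3, 53, 57.2 and 57 CPM and 49.1, 47, 45.7 and 43 CPM (log2 −0.31 ± 0.07, adjusted p = 0.106). Both had ages that did not overlap. Omp, the marker of olfactory sensory axons, stood at 2.57, 0.528, 2.24 and 6.19 CPM and 1.09, 0.706, 0.864 and 1.39 CPM, with library G below every 26-month library. The list median on the control diet was −0.64. How much bulb each brain sample held is not in the labels, and its part in these values was not tested.

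Of 11 tested genes of the mitochondrial genome all 11 had estimates below 0 and none passed. The ages overlapped for both ribosomal RNAs and for the transfer RNA genes mt-Tp and mt-Tc. Of 13 listed messenger genes 7 were tested, at a list median of −0.54. For all 7 the ages did not overlap, against 3.48% of all genes in the lower direction. mt-Co2, mt-Co3, mt-Atp6, mt-Atp8 and mt-Nd4l had no counts in any ketogenic library, so these values cover only part of the mitochondrial messengers. Why those genes had no counts was not tested. mt-Co1, a subunit of cytochrome oxidase, stood at 6721, 7129, 7125 and 6154 CPM at 13 months and 4809, 4856, 4556 and 5238 CPM at 26 months (log2 −0.48 ± 0.11, adjusted p = 0.10). mt-Nd1, of complex I, stood at 3090, 3639, 3296 and 3033 CPM and 2171, 2261, 2001 and 2578 CPM (log2 −0.54 ± 0.13, adjusted p = 0.113). mt-Cytb, of complex III, stood at 4313, 4755, 4534 and 4245 CPM and 2907, 2907, 2808 and 3384 CPM (log2 −0.57 ± 0.14, adjusted p = 0.116). The mitochondrial rRNA share was 24.2, 25.2, 25.7 and 18.1% of counts at 13 months and 21.1, 21.6, 19.5 and 18.6% at 26 months, so it was low in the low-18S libraries of both ages and its groups overlapped. Whether RNA selection during library making had a part was not tested. In the fit with the low-18S term 1 of the 7 passed, mt-Co1 (adjusted p = 0.0429), where 1.51% of all genes passed lower. DESeq2 called 5 of them, among 48 lower genes in all. With upper-quartile scaling 0 passed, and with libraries G and P left out 0 passed. Of 23 respiratory chain genes of the nucleus none passed, with 18 estimates above 0 and a list median of 0.06.

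No gene of ketone body use or of fat oxidation passed. Of 10 ketone body genes none passed, at a list median of 0.11. The smallest p there were those of Aacs, which activates acetoacetate for lipid synthesis (log2 0.24 ± 0.07, adjusted p = 0.193), and Slc16a7, the monocarboxylate transporter MCT2 (log2 −0.21 ± 0.08, adjusted p = 0.321), and for both the ages did not overlap. Bdh1, which interconverts the ketone bodies acetoacetate and beta-hydroxybutyrate, stood at 21.3, 19.2, 23 and 21.6 CPM at 13 months and 22.2, 23.8, 21.5 and 25.4 CPM at 26 months (log2 0.13 ± 0.08). Oxct1, the enzyme that commits acetoacetate to oxidation, stood at 183, 169, 167 and 169 CPM and 175, 173, 167 and 166 CPM (log2 −0.01 ± 0.05). Slc16a1, the transporter MCT1 that carries ketone bodies across the blood-brain barrier, had overlapping ages (log2 −0.02 ± 0.10). None of 23 genes of fatty acid oxidation and PPAR signalling passed, at a list median of 0.04, among them Pdk4, a kinase that restrains glucose oxidation (log2 0.13 ± 0.20), and Cpt1a, the carnitine transferase of fat entry into mitochondria (log2 −0.06 ± 0.13). The smallest p in that list was that of Fabp7, the brain-type fatty acid-binding protein, at 13.9, 9.59, 10.6 and 17.8 CPM and 6.28, 9.79, 4.68 and 8.51 CPM (log2 −0.84 ± 0.29, adjusted p = 0.29). Its estimate was the lowest of the list, whose members ran from −0.84 to 0.46, and its ages overlapped. The median SE over all tested genes was 0.13. The called gene nearest the threshold, Anxa3, had a change of 0.52 with an SE of 0.11. For a gene of ordinary spread, changes of several times the SE could thus be missed with 4 libraries per group. None of 20 glycolysis genes and none of 19 cholesterol synthesis genes passed, at list medians of 0.09 and 0.09. Of 24 ribosomal protein genes 23 had estimates above 0, at a list median of 0.15, and none passed.

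**Figure D3:**
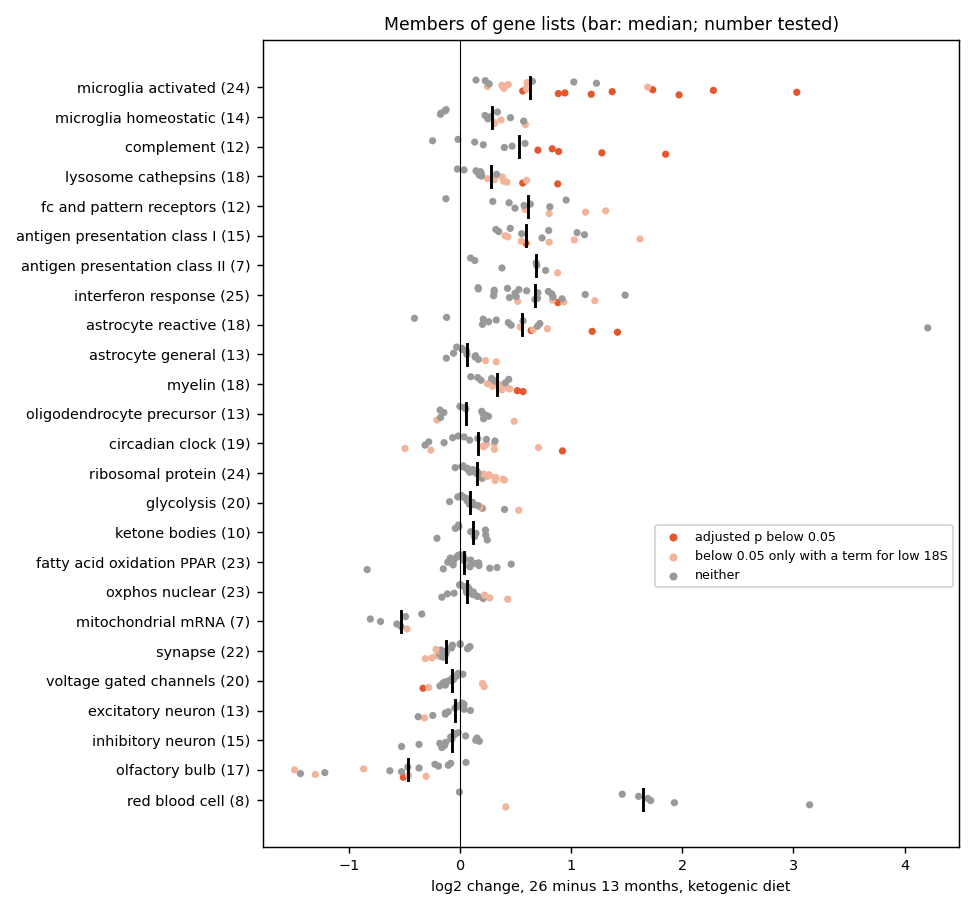
Log2 change from 13 to 26 months on the ketogenic diet (horizontal axis) for each tested member of 25 gene lists, with the number tested beside each name and a bar at the list median. Members of the activated microglia list all lie above 0, at a median of 0.62, as do the myelin genes at 0.33, while the 7 mitochondrial messengers all lie below 0.

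Blood transcripts also differed between the libraries. Haemoglobin and other red cell genes summed to 279.8, 399, 432 and 240.2 CPM at 13 months and 473, 1188, 1412 and 374 CPM at 26 months, with libraries P and Q above all others. None of the 8 passed, at a list median of 1.65. Igkc, the immunoglobulin kappa constant region of B and plasma cells, had 1, 3, 6 and 4 counts at 13 months and 92, 226, 25 and 18 counts at 26 months, with the ages separate and a wide spread (log2 4.83 ± 1.05, adjusted p = 0.10). The neutrophil list summed to at most 6.16 CPM in 7 of the 8 libraries and to 63.0 CPM in library P. Among the called microglial and complement genes above, library P was the highest of its age for Lyz2, Itgb2, Cybb, Clec7a, Lgals3 and Ctsz. Library Q, the other one rich in red cell transcripts, was the highest for C4b, C1qa, C1qb, C1qc, Trem2, Itgax, Mpeg1, Gpnmb, Ctss and Lilrb4a, and library O for Cd84 and Dock2. The part of blood cells in these results was not tested.

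On the control diet 37 genes passed over the same ages (0.208%), and 17 genes passed on both diets in the same direction, 43.6% of the ketogenic calls and 45.9% of the control calls. These 17 were C4b, C1qa, C1qc, Clec7a, Itgax, Trem2, Cd84, Lyz2, Mpeg1, Ctss, Dock2, Lgals3bp, Gfap, Serpina3n, Anxa3, Dbp and Gng4. The comparisons on the 2 diets share no library, but both rest on the same estimate of the spread of each gene. They are therefore not fully independent. Of the 39 ketogenic calls, 37 had a control estimate of the same sign, and the exceptions were Lgi3 (control log2 −0.05 ± 0.05) and Plppr5 (0.02 ± 0.09). In 34 of the 39 the ketogenic change was the larger in size, but the 39 were selected on the ketogenic comparison, so this count is a description. C4b, for example, changed by 1.65 ± 0.12 on the control diet and 1.85 ± 0.12 on the ketogenic diet, and Gfap by 1.02 ± 0.13 and 1.19 ± 0.13. Medians of whole lists went both ways. For activated microglia they were 0.67 on the control and 0.62 on the ketogenic diet, and for complement 0.63 and 0.52. In the same order, class I gave 0.87 and 0.59, interferon response 0.81 and 0.67, and reactive astrocytes 0.57 and 0.55. Lysosomal genes gave 0.17 and 0.28, and class II genes 0.36 and 0.68.

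Whether the change with age differed between the diets was tested as an interaction in edgeR, in which no gene passed (0.00%). At an unadjusted p below 0.05 there were 783 genes (4.41%), 12 of them among the 39, and DESeq2 also called 0. The members of the myelin list gave 0.08 as their median on the control diet and 0.33 on the ketogenic diet. Mag stood at 109, 102, 108 and 115 CPM in the control brains of 13 months and 95.1, 129, 121 and 122 CPM in those of 26 months (log2 0.11 ± 0.09). Its difference between the diets in the change with age was 0.46 ± 0.13 (unadjusted p = 0.00289, adjusted p = 1.0). On the control diet the ages overlapped for Mag, because the low-18S library K was below all 13-month libraries, and on the ketogenic diet they did not. With the low-18S term 2 interactions passed (0.0113%). The difference for Mag was 1 of them, at 0.48 ± 0.08 (adjusted p = 0.0326), together with that of the mitochondrial transfer RNA gene mt-Tp at −0.77 ± 0.14 (adjusted p = 0.0326). Without the low-18S libraries mt-Tp (−0.88 ± 0.16, adjusted p = 0.0486) and mt-Nd6, a subunit of complex I (−0.48 ± 0.09, adjusted p = 0.0486), passed and Mag did not.

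The smallest interaction p belonged to Kcnk13, a potassium channel of microglia, at 0.78 ± 0.16 (unadjusted p = 1.02e-04). On the ketogenic diet it stood at 5.2, 6.68, 5.89 and 6.6 CPM and 8.29, 8.47, 8.13 and 7.55 CPM, and on the control diet at 7.0, 8.41, 8.04 and 7.24 CPM and 5.61, 5.61, 6.38 and 6.15 CPM. It was thus higher in all 4 older ketogenic libraries than in the younger ones and lower in all 4 older control libraries. The next were Lrch2 (−0.48 ± 0.11), Lgi3 (0.33 ± 0.08), Cnksr2, a scaffold of the postsynaptic density (−0.36 ± 0.08), and Phldb1 (0.42 ± 0.10). For Lgi3 the control libraries stood at 75.7, 79.1, 76.3 and 80.4 CPM and 70.2, 77.6, 75.5 and 78.3 CPM, within the range of the 13-month ketogenic libraries or close to it. The tested mitochondrial messengers had a control list median of 0.11 against −0.54 on the ketogenic diet. mt-Co1 stood at 6332, 5437, 5848 and 6816 CPM and 5587, 7284, 7459.6 and 5002 CPM in the control libraries, with overlapping ages, and its interaction was −0.53 ± 0.16 (unadjusted p = 0.00369, adjusted p = 1.0). Dbp and Arntl had interactions of 0.28 ± 0.14 and 0.03 ± 0.16, which did not pass.

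**Figure D4:**
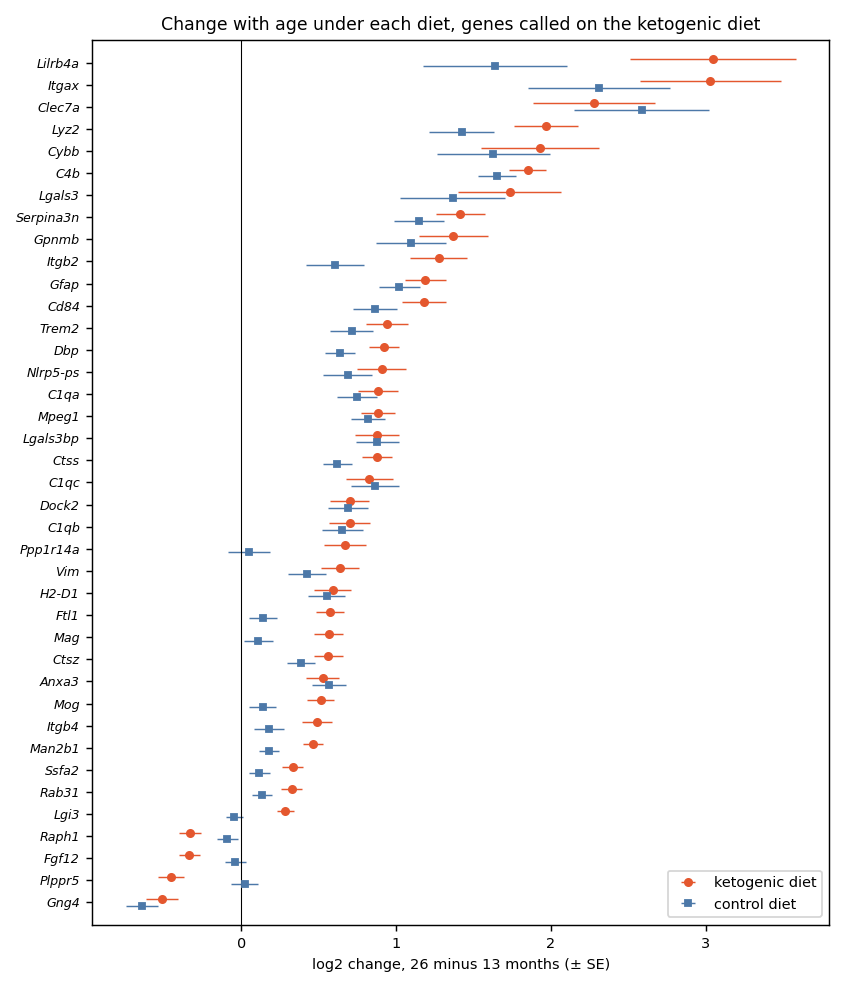
Log2 change from 13 to 26 months with its SE (horizontal axis) for the 39 genes called on the ketogenic diet, in orange circles for the ketogenic and blue squares for the control diet. The control estimate lies on the same side of 0 for 37 genes, and Lgi3 and Plppr5 are the exceptions.

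**Figure D5:**
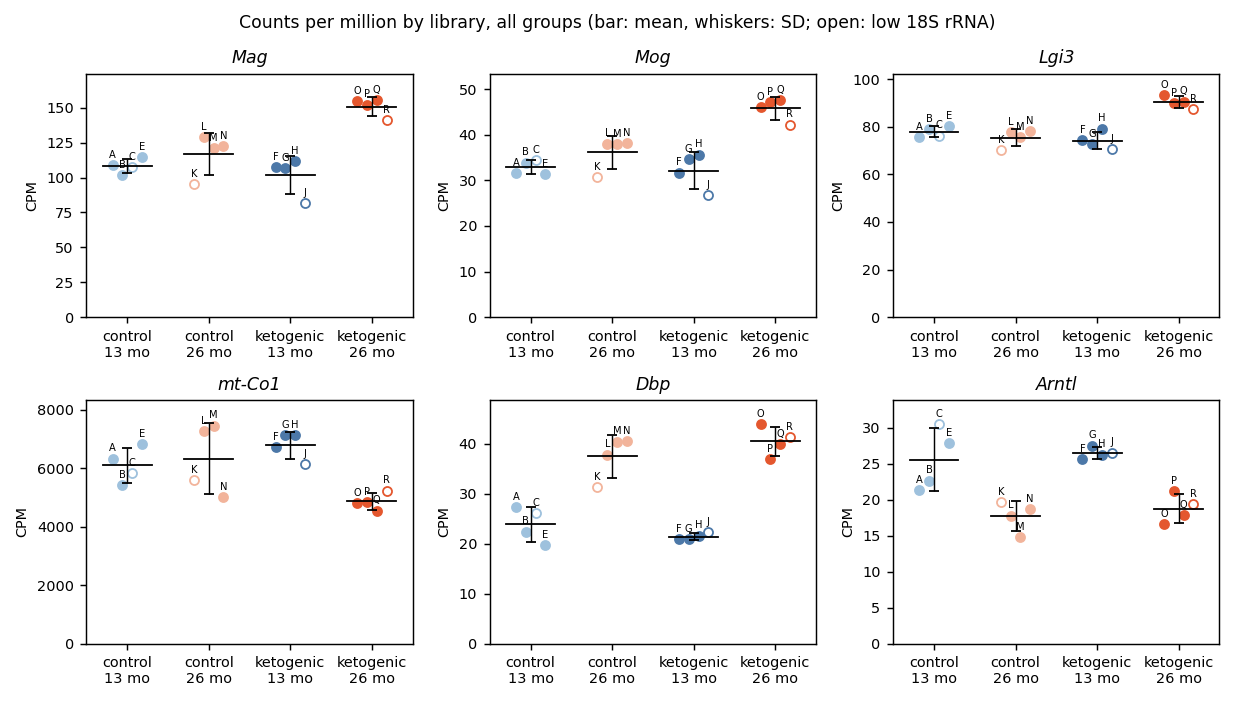
Level of 6 genes in CPM (vertical axes from 0) in the 4 libraries of each diet and age, with a letter per library, bars at the mean, whiskers of 1 SD and open symbols for the 4 low-18S libraries. Mag, Mog and Lgi3 are higher in every 26-month ketogenic library than in the other 12 libraries, mt-Co1 has its lowest mean in that group, while Dbp is higher and Arntl lower at 26 months on both diets.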

How the data were processed

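RNA was measured by sequencing of mouse brain. Per the labels' protocols, total RNA was extracted with Qiazol, cleaned on columns with DNase treatment, and made into strand-keeping NEBNext Ultra II libraries. The authors deposited raw read counts for 48440 genes in 16 libraries, of which 35022 had a count above 0. Per the submitters' processing notes, FastQC, Trimmomatic, STAR and the build mm10 were used. Neither the program that counted the reads nor its strand setting, annotation or versions are stated in the labels, so reads of overlapping genes and close copies are uncertain. Starts were raised by 1, and 48058 identifiers matched GENCODE on the same build.

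Counts were tested with edgeR 4.0.16 in R 4.3.3. The default expression filter left 17762 genes, TMM scaled the libraries, and 1 robust quasi-likelihood model with a mean for each of the 4 groups was fitted to all 16 libraries, which leaves 12 residual degrees of freedom. p-values were adjusted over all tested genes by Benjamini-Hochberg. Each SE was taken as the size of the log2 change over the square root of F. The script was tested on simulated data. No pair of ketogenic libraries of 1 age agreed within sampling noise (chi-square per degree of freedom 3.68 to 125). A low-18S library has under 1% of counts on Rn18s-rs5. For single values, 4 against 4 libraries allow no exact permutation p under 0.0286, so no such test is given.

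The comparison and the gene lists were chosen with earlier results of these data known, so list counts and medians are descriptions. The genes named are all 39 that passed, called members or up to 3 with the smallest p of each list, the 5 smallest interaction p, the 10 genes next to the threshold and 16 genes in every case. Other genes were named after their values were seen. Alternatives were DESeq2 1.42.0, upper-quartile scaling, other filters, the 8 ketogenic libraries alone, the low-18S term and left-out libraries. Leaving out control libraries was added after seeing the data. Some genes of the lists are not reported here by name.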

Additional observations from a re-analysis of the deposited data

Results flagged for a closer look

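In each group of 4 ketogenic libraries, a library was looked for that lay far from the other 3, in the levels of the 39 called genes and in list scores (the mean centred log2 CPM of the members). About 1 in 20 groups is picked out in this way by chance, and 13 of 164 were. The causes were not tested.

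At 13 months the low-18S library J was far below the others for Mag, at 81.7 CPM, and for Lgals3, at 0.272 CPM. It was also lowest in the scores of the activated microglia list (−0.484), the myelin list (−0.404) and the voltage-gated channel list (−0.00271). Library H was far above for Clec7a, at 1.31 CPM, and for the ependymal score (0.452). Library G, which held liver transcripts, had the highest scores for complement (0.0101) and class I antigen presentation (−0.256), and library F the lowest for cytokines (−0.223).

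At 26 months library Q was far above for Mpeg1, at 39.4 CPM, and for the score of oligodendrocyte precursor genes (0.10). Library R, with low 18S, was lowest for the score of inhibitory neuron genes (−0.141).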

How the results depend on the processing

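The count of 39 genes rose to 140 with DESeq2 (92 higher, 48 lower), to 675 with the low-18S term (406 and 269) and to 547 without the low-18S libraries (307 and 240), and all 39 were in each of these sets. It was 15, all higher, without libraries G and P, and 15, all higher, when tested against a fold of 1.2. Leaving out 1 ketogenic library at a time gave 16 (without P) to 74 (without R). Leaving out 1 control library gave 25 (without E, M or N) to 60 (without K). The 8 ketogenic libraries alone gave 43 genes, 25 of them among the 39. No filter (39), at least 1 CPM in 4 libraries (48) and upper-quartile scaling (55) stayed within 1.5 times the count. The interaction had 2 genes with the low-18S term, 2 without the low-18S libraries and 0 under the other alternatives run. For the 39 genes, no alternative turned a direction, 683 of the refitted values stayed on the same side of the threshold and 252 lost it. Of the list medians, 1008 moved by less than the spread between libraries and 23 by more. The cause of these moves was not tested. No paired analysis was possible because the groups share no library letters. Genes with few counts, such as Itgax, Clec7a and Lilrb4a, have wide errors at this depth.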
